A study of Mus musculus with 8 samples.

Results

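The T cell receptor beta, gamma and delta variable segments were taken as all rows of the expression table whose gene symbol starts with Trbv, Trgv or Trdv. They were 29 of the 37979 genes listed, with 23 Trbv, 1 Trgv (Trgv2) and 5 Trdv segments. The table came from bulk RNAseq of mural cells sorted from hindlimb muscles of mice aged 3 to 4 months, with 4 libraries of pericytes and 4 libraries of smooth muscle cells (SMCs). All 8 libraries came from Ai14+/-;SM22α-Cre+ mice of both sexes, in which Cre driven by the SM22α promoter switches on tdTomato for good. Cells were gated as DAPI low and negative for CD31 and CD45, and pericytes were PDGFRβ+tdTomato- while SMCs were PDGFRβ+tdTomato+. The pericyte group is thus set by the absence of the reporter, and each library pooled cells from multiple sorts. All libraries carry the same batch label, and which sorts went into which library is not given in the sources used here. Values are FPKM, the number of fragments scaled by the length of the transcript and by the mapped reads of the library, and differences were tested with limma on log2(FPKM + 1) over 27414 genes, with q as the Benjamini-Hochberg adjusted p. A gene was called at a q below 0.05 and a log2 fold change above 2 in either direction.

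A T cell receptor is a pair of chains, either alpha with beta or gamma with delta, and each chain is encoded by a gene that the developing T cell assembles from separate segments. The RAG recombinase cuts beside a variable (V) segment, which is then joined to a joining segment, in the beta and delta loci through a diversity segment. Each mature T cell therefore uses a particular V segment of a chain, and a mixed population of T cells uses many. The gene models of the V segments are short, mostly a leader exon and a V exon that encodes the domain which contacts antigen.

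RAG finds a V segment by the recombination signal that follows it, a heptamer and a nonamer separated by a spacer of 23 bases. Signals read from the mouse genome (NCBI Build 37) just downstream of the V exons are shown for the segments with the highest levels in pericytes, for Trbv17, for the segment closest to the consensus (Trbv1), for the low or absent Trbv23, Trbv21 and Trbv10, and for the gamma and delta segments. Each is written 5′ to 3′ along the segment's own strand, with the heptamer and the nonamer in capitals and the spacer in lower case.
Trbv13-2, chr6:41071832-41071870, plus strand: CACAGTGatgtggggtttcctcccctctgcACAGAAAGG
Trbv13-3, chr6:41080585-41080623, plus strand: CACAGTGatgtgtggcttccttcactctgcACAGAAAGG
Trbv13-1, chr6:41066468-41066506, plus strand: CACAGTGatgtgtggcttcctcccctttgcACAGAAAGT
Trbv12-2, chr6:41069364-41069402, plus strand: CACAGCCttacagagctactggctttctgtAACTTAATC
Trbv12-1, chr6:41064067-41064105, plus strand: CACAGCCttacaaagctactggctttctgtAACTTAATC
Trbv16, chr6:41102230-41102268, plus strand: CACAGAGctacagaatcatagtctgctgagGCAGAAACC
Trbv17, chr6:41113556-41113594, plus strand: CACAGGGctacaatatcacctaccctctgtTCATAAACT
Trbv1, chr6:40841885-40841923, plus strand: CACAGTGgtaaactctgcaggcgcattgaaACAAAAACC
Trbv23, chr6:41166526-41166564, plus strand: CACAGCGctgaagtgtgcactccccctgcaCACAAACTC
Trbv21, chr6:41153044-41153082, plus strand: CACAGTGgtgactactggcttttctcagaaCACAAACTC
Trbv10, chr6:41042228-41042266, plus strand: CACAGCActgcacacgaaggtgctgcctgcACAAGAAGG
Trgv2, chr13:19428403-19428441, minus strand: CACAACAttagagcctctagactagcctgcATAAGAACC
Trdv4, chr14:54695191-54695229, plus strand: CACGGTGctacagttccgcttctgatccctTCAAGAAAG
Trdv1, chr14:54501893-54501931, plus strand: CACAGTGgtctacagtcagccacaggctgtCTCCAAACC
Trdv5, chr14:54768298-54768336, minus strand: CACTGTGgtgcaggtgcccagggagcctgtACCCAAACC
Trdv2-1, chr14:54566336-54566374, plus strand: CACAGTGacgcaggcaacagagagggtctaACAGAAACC
Trdv2-2, chr14:54581278-54581316, plus strand: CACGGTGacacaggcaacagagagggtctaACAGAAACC

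The signals were found as the best match to the heptamer CACAGTG and the nonamer ACAAAAACC at a spacer of 23 bases, on the segment's own strand near the annotated end of the V exon. In 22 of the 29 segments the best match began at the base right after the annotated end, and in all 29 the heptamer began with CAC. At least 12 of the 16 consensus bases matched in 22 of 29 segments (75.9%). The same search matched at least 12 bases in 0.355% of 29262 windows of the same length laid every 10000 bases along both strands of chromosome 6. A heptamer with 7 of 7 bases was the best match in 34.5% of the segments, and a perfect heptamer at any searched position was found in 0.526% of the windows. Trbv1 matched 16 of 16 bases, while Trbv12-1 and Trbv12-2 matched 9, a number reached in 32.2% of the windows. A match of letters describes the sequence and does not show that it is used.

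The V exon of Trbv17, a beta segment that the study names, lies at chr6:41113261-41113550 on the plus strand. The V exon of Trdv4, the leading Trdv segment in the results, lies at chr14:54694892-54695190 on the plus strand. In both sequences the capitals mark the last in-frame TGT codon, the cysteine after which the V exon runs into the antigen-binding loop formed at the junction.
Trbv17: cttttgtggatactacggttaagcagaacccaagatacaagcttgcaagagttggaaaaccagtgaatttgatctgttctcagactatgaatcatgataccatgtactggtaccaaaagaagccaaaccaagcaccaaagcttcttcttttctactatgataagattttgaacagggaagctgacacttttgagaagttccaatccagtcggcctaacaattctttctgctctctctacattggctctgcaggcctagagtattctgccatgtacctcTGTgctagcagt
Trdv4: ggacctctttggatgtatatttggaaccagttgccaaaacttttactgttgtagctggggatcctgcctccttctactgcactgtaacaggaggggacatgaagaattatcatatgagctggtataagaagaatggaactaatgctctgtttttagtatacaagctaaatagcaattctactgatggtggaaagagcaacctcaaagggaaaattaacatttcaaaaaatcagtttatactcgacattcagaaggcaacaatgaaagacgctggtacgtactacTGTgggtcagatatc

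Nearly all V segments were higher in pericytes than in SMCs. Limma called 21 of the 22 Trbv segments it tested (23 listed), Trgv2, and 4 of the 4 Trdv segments it tested (5 listed) higher in pericytes, against 3.24% of all genes tested. The same 26 segments had every pericyte library above every SMC library, which was so for 12.1% of all genes tested. The median log2 fold change was 5.60 over the tested Trbv segments, 4.04 for Trgv2, 3.09 over the tested Trdv segments and 0.02 over all genes tested. These sizes depend on the pseudocount for segments near 0 in SMCs. With 0.1 in place of 1 the medians were 6.65 for Trbv, 5.27 for Trgv2, 4.97 for Trdv and 0.085 for all genes. With Trbv23 and Trbv26 at their lower bounds (mean pericyte FPKM over a floor of 3 SMC fragments), the Trbv median was 5.67. These bounds have no pseudocount while the other segments kept 1, so this median mixes scales. The segments not called were Trbv21, and Trbv10 and Trdv2-1, which were listed at 0 in all 8 libraries and not tested. In bulk samples, fewer cells of a type and less RNA per cell cannot be told apart.

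Genes that mark T cells moved with the V segments. All 11 of the 11 T cell markers (the CD3 chains, Lck, Zap70 and others) were called higher in pericytes, with a summed level of 2142 to 3183 FPKM in pericytes and 33.3 to 51.2 FPKM in SMCs. The B cell markers had 5 of 6 called and a summed level of 795 to 1979 FPKM in pericytes and 9.60 to 30.9 FPKM in SMCs, and the NK markers had 4 of 4 called, with 48.4 to 98.5 FPKM and 1.45 to 5.15 FPKM. Ptprc, which encodes CD45, the antigen the gate excluded, had 80.6 to 230 FPKM in pericytes and 4.34 to 11.9 FPKM in SMCs. None of the 6 pericyte markers was called in either direction, and their summed level was 23 to 65.6 FPKM in pericytes and 59.2 to 246 FPKM in SMCs. The SMC markers had 0 of 5 called (569 to 1856 FPKM in pericytes and 1715 to 5514 FPKM in SMCs), and of 5 macrophage markers 1 was called higher in SMCs. Endothelial markers had 2 of 4 and fibroblast markers 3 of 4 called higher in SMCs, against 728 of all 27414 genes tested. Of the markers in these lists, Dcn, a fibroblast proteoglycan gene called higher in pericytes, was listed at 0 in all SMC libraries. Lum, another fibroblast marker, had 1131 to 1971 FPKM in those libraries, and why Dcn was listed at 0 was not tested. The part of other cell types in the V segment levels was not tested.

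The beta V segments as a whole had similar levels in 3 of the 4 pericyte libraries. Summed Trbv FPKM was 2213, 3861, 2262 and 2246 in pericyte replicates 1 to 4, and 42.2, 40.0, 11.7 and 37.9 in SMC replicates 1 to 4. Pericyte replicate 2 stood apart, and its FPKM over all genes summed to 1190435 against 690247 to 782014 in the other pericyte libraries and 656405 to 737839 in SMCs. With each library scaled to the same total (TPM), the Trbv sums were 3206, 3243, 3149 and 2872 in pericytes and 57.1, 60.9, 16.8 and 54.2 in SMCs. Replicate 2 was the highest pericyte library for 18 of 22 Trbv segments in FPKM and for 9 of 22 in TPM.

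Low FPKM values of genes of a given length were whole multiples of a fixed step, from which the number of fragments behind a value was estimated. The estimate gave 5083 to 8104 fragments on Trbv segments in a pericyte library and 29 to 106 in an SMC library, or 24380 against 324 over each group. All 96 values of 12 or fewer fragments came out within 0.1 of a whole number. Levels of the leading segments thus rest on 65 to 862 fragments in a pericyte library and on 0 to 21 in an SMC library. A single fragment on a model of 340 bases was worth 0.388 to 0.494 FPKM, so SMC values below about 1 FPKM rest on 1 or 2 fragments in models of about that length.

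**Figure D1:**
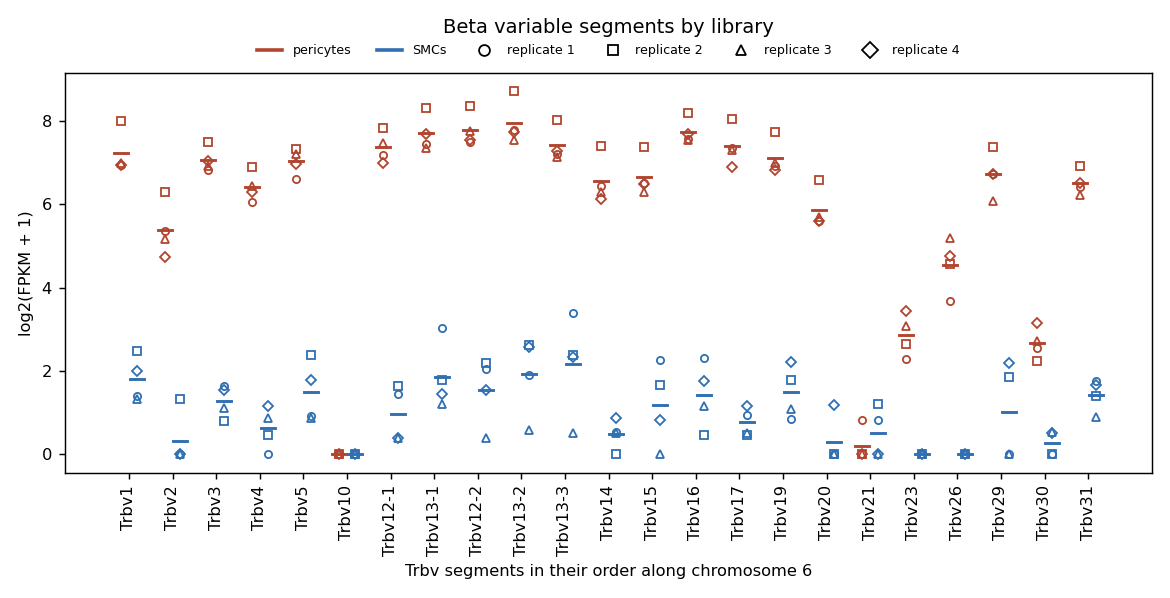
Level of each of the 23 Trbv segments, as log2(FPKM + 1), in the 4 pericyte and 4 SMC libraries, in their order along chromosome 6, with the replicate shown by the marker and the group mean by a bar. In 21 segments all pericyte libraries lie above all SMC libraries, while Trbv10 is at 0 throughout and Trbv21 is near 0 in both groups.

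The 6 Trbv segments with the highest mean in pericytes were Trbv13-2, Trbv12-2, Trbv16, Trbv13-1, Trbv13-3 and Trbv17. Trbv13-2, a member of a beta subfamily with 3 segments, had 219, 422, 187 and 212 FPKM in pericytes and 2.76, 5.17, 0.505 and 4.96 FPKM in SMCs. Its mean was 260.0 ± 109 FPKM (SD, n = 4) against 3.35 ± 2.19 FPKM (SD, n = 4), with a log2 fold change of 6.02 (SE 0.50, q = 0.000228). Every pericyte library was above every SMC library, and pericyte replicate 2 was far above the other 3.

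Trbv12-2 had 180, 328, 217 and 187 FPKM in pericytes and 3.14, 3.61, 0.322 and 1.90 FPKM in SMCs, a log2 fold change of 6.25 (SE 0.41, q = 8.88e-05). Trbv16 had 191, 292, 185 and 205 FPKM in pericytes and 3.999, 0.380, 1.22 and 2.40 FPKM in SMCs, a log2 fold change of 6.32 (SE 0.39, q = 6.65e-05). The groups were far apart for both segments, and SMC replicate 3 was the lowest SMC library for Trbv12-2 and SMC replicate 2 for Trbv16. Trbv13-1 had 175, 316, 164 and 207 FPKM in pericytes and 7.16, 2.45, 1.31 and 1.72 FPKM in SMCs, with a log2 fold change of 5.84 (SE 0.42, q = 0.000121). Trbv13-3 had 147, 260.0, 141 and 155 FPKM in pericytes and 9.50, 4.25, 0.415 and 4.08 FPKM in SMCs, with a log2 fold change of 5.26 (SE 0.58, q = 0.000810). SMC replicate 1 held the highest SMC level of any Trbv segment, the 9.50 FPKM of Trbv13-3, which rest on 21 fragments.

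Trbv17 had 163, 263, 157 and 118 FPKM in pericytes and 0.913, 0.390, 0.419 and 1.23 FPKM in SMCs. Its log2 fold change, 6.63 (SE 0.27, q = 1.42e-05), was the largest of the 29 segments on this scale, but not with a pseudocount of 0.1 (Trbv20 8.22 against 7.78 for Trbv17) or without SMC replicate 2 (Trbv12-1 6.62 against 6.53). The pericyte values rest on 358, 527, 360 and 286 fragments and the SMC values on 2, 1, 1 and 3, so its SMC level is known only within wide counting error. Trbv17 made up 7.38%, 6.81%, 6.92% and 5.27% of summed Trbv FPKM in the pericyte libraries, and it was 5th, 5th, 6th and 10th of the 23 segments in rank. Trbv12-1 (126 to 229 FPKM in pericytes) and Trbv13-3 (141 to 260.0 FPKM), its neighbours by mean level, lay within its range over pericyte libraries.

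The 18 Trbv segments above a mean of 25 FPKM in pericytes (a line drawn after the values were seen) spanned 44.5 to 260.0 FPKM, a ratio of 5.84 between the highest and the lowest. Below the first 6 came, in order, Trbv12-1, Trbv1, Trbv19, Trbv3, Trbv5, Trbv29, Trbv15, Trbv14, Trbv31, Trbv4, Trbv20 and Trbv2. Neighbours in that order overlapped over the pericyte libraries in FPKM. In shares of summed Trbv FPKM, Trbv20 (2.11% to 2.45%) overlapped neither Trbv4 (2.98% to 3.78%) nor Trbv2 (1.14% to 2.01%). Of the 18, 12 were above 0 in all 4 SMC libraries.

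Trbv29, which RefSeq lists as a V segment pseudogene, had 105, 165, 66.4 and 105 FPKM in pericytes and 0, 2.61, 0 and 3.55 FPKM in SMCs, with a log2 fold change of 5.72 (SE 0.59, q = 0.000595). It ranked 11th to 16th of 23 in the pericyte libraries, among segments listed as V segments without that label. The Build 37 coding model of Trbv29, like those of the other 28 segments, held 0 in-frame stop codons. Trbv10, the other segment that RefSeq lists as a pseudogene, was at 0 in all 8 libraries, and its V exon held no in-frame cysteine codon in the annotated frame, unlike the other 28.

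In FPKM, where pericyte replicate 2 has the highest total, the largest spread over pericyte libraries among the 18 segments was that of Trbv2, with 40.1, 77.5, 34.9 and 25.7 FPKM (coefficient of variation 0.511). In SMCs Trbv2 had 1.49 FPKM in replicate 2, from 4 fragments, and 0 in the other 3 libraries. Trbv14 came next with 86.5, 169, 78.1 and 68.9 FPKM in pericytes and 0.456, 0, 0.419 and 0.823 FPKM in SMCs. The smallest spreads in FPKM were those of Trbv5 (96.6 to 160 FPKM, coefficient of variation 0.210), Trbv31 (73.5 to 121 FPKM, 0.219) and Trbv3 (113 to 181 FPKM, 0.228). This order changed when levels were taken as shares of the Trbv sum. In shares Trbv2 still had the largest coefficient of variation (0.230), Trbv5 the second largest (0.215) and Trbv29 the next (0.202), while Trbv14 had 0.154 and Trbv3 0.0908. Trbv31 lies beyond the constant genes in the opposite orientation, and its level was 15th of the 23 by mean.

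Below the 18, Trbv26 and Trbv23 were detected in every pericyte library and listed at 0 in every SMC library. Trbv26 had 11.8, 22.8, 35.7 and 26.1 FPKM in pericytes (q = 8.10e-05), and Trbv23 had 3.92, 5.23, 7.47 and 9.88 FPKM (q = 0.000218). Against a floor of 3 fragments over the 4 SMC libraries, Trbv26 was at least 79.8-fold and Trbv23 at least 21.96-fold higher in pericytes. Trbv30 had 4.85, 3.70, 5.55 and 7.91 FPKM in pericytes and 2 fragments in all SMC libraries together (q = 0.000413). In these 3 segments pericyte replicate 2 was not the highest library, unlike in most of the others.

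Trbv21 had 0.765 FPKM in pericyte replicate 1, 0.770 and 1.30 FPKM in SMC replicates 1 and 2, and 0 in the other 5 libraries (q = 0.622). These values rest on 1 fragment in pericytes and 3 fragments in SMCs, so a difference was not detectable at this depth. The models of Trbv21 (290 bases) and Trbv10 (289 bases) hold a V exon and no leader exon, unlike the other 27 segments. Trbv10, Trbv21, Trbv23 and Trbv30 were among the 5 lowest beta segments of every pericyte library.

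Beta segment use was broad and nearly equal between pericyte libraries. Evenness (Shannon entropy over its maximum for the segments above 0, so that 1 means equal use) was 0.920, 0.931, 0.939 and 0.937 in pericytes, where 22, 21, 21 and 21 segments were above 0. It was 0.881, 0.922, 0.953 and 0.935 in SMCs, where 15, 17, 15 and 18 segments were above 0. The groups overlapped in evenness and not in the number of segments above 0. The entropy was that of 17.2, 17.0, 17.4 and 17.3 equally used segments in pericytes and of 10.9, 13.6, 13.2 and 14.9 in SMCs. The leading segment took 9.91%, 10.9%, 9.60% and 9.43% of summed Trbv FPKM in pericytes, Trbv13-2 in 3 libraries and Trbv12-2 in replicate 3. In SMCs it took 22.5% (Trbv13-3), 12.9% (Trbv13-2), 12.99% (Trbv1) and 13.1% (Trbv13-2). Depth moves with this contrast, since an SMC library holds at most 106 Trbv fragments, and its part in the lower number of segments was not tested.

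Shares of the beta chain varied less than levels. Over the 18 leading segments the coefficient of variation over pericyte libraries had a median of 0.327 in FPKM and of 0.105 in shares. The share of Trbv13-3 was 6.63%, 6.73%, 6.23% and 6.92% in the pericyte libraries, the lowest coefficient of variation of the 18 (0.0437), while in SMCs it was 22.5%, 10.6%, 3.53% and 10.8%. Which segment led depended on the weight given to length. By fragments, Trbv12-2 led in all 4 pericyte libraries, with 518, 862, 657 and 591 fragments against 396, 699, 355 and 424 for Trbv13-2. The Trbv12-2 model is 372 bases long and the Trbv13-2 model 319 bases, with leader exons of 79 and 25 bases.

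**Figure D2:**
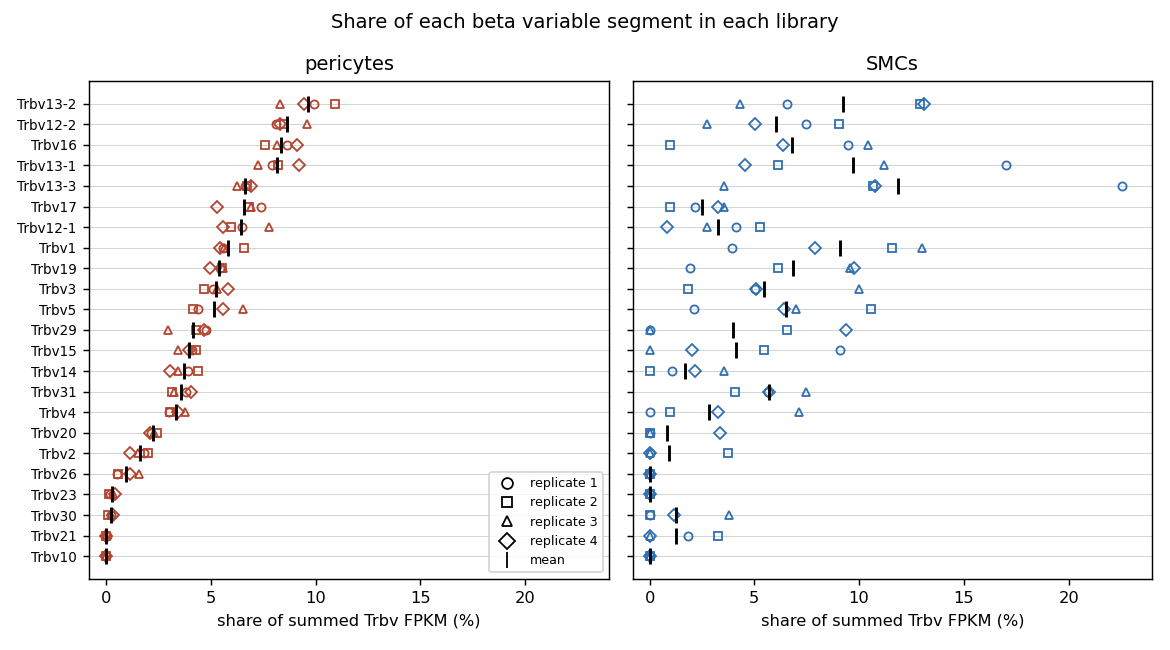
Share of each Trbv segment in the summed Trbv FPKM of its library (percent), for the 4 pericyte libraries (left) and the 4 SMC libraries (right), ordered by mean share in pericytes, with markers for replicates and a tick for the mean. The pericyte markers of a segment lie close together, with Trbv13-2 at the top at 8.28% to 10.9%, and the SMC markers scatter up to the 22.5% of Trbv13-3 in replicate 1.

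The order of the beta segments was nearly the same in all pericyte libraries. Spearman's rho across the 23 segments was 0.936 to 0.986 over the 6 pairs of pericyte libraries (mean 0.953), 0.324 to 0.708 over the 6 pairs of SMC libraries (mean 0.539) and 0.552 to 0.809 over the 16 pairs of a pericyte and an SMC library (mean 0.666). Between the group means rho was 0.846. These are descriptions across segments, which share a library and its depth and include segments at 0. Over segments above 0 in both libraries of a pair, the mean rho was 0.179 within SMCs and 0.279 between groups. Trbv12-2, Trbv13-1, Trbv13-2 and Trbv16 were among the 6 highest segments in every pericyte library.

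**Figure D3:**
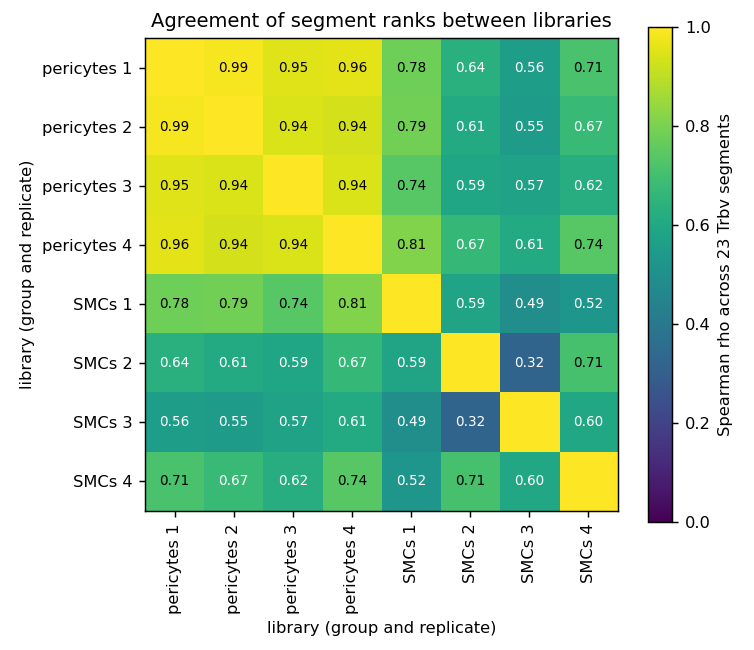
Spearman's rho across the 23 Trbv segments for each pair of the 8 libraries, as colour and number. The 6 pairs of pericyte libraries lie between 0.936 and 0.986, above all pairs that include an SMC library (0.324 to 0.809).

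The features of the beta segments that the selection did not use went weakly with their levels. Across the 23 segments, rho with the mean pericyte FPKM was -0.296 for position along the chromosome, 0.335 for exon length and 0.178 for the number of consensus bases in the recombination signal. The 18 leading segments had a median of 13 matching bases of 16 and the other 5 a median of 11, with 6 of 18 and 2 of 5 perfect heptamers. Trbv12-2, second in mean level, had the fewest matches (9), and Trbv21, with a perfect heptamer, was near 0. The V exons of Trbv13-2 and Trbv13-3 are 91.8% identical with a longest shared run of 50 bases, and those of Trbv12-1 and Trbv12-2 are 89.1% identical with a run of 44 bases, so reads could be split between them in a way the sources used here do not give.

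The Trdv segments were dominated by Trdv4. It had 42.3, 28.7, 102 and 129 FPKM in pericytes and 4.76, 1.11, 10.7 and 8.59 FPKM in SMCs. Its mean was 75.4 ± 47.7 FPKM (SD, n = 4) against 6.30 ± 4.25 FPKM (SD, n = 4), with a log2 fold change of 3.40 (SE 0.68, q = 0.0112). The groups did not overlap, and in both groups replicates 3 and 4 were above replicates 1 and 2. Fragments behind Trdv4 were 98, 61, 247 and 328 in pericytes and 11, 3, 27 and 22 in SMCs. Of the beta, gamma and delta V segments selected here, Trdv4 had the most fragments in SMCs, 63 against 43 for Trbv13-3.

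The other Trdv segments were lower. Trdv1 had 13.1, 13.8, 8.71 and 5.01 FPKM in pericytes (q = 0.000273) and 1 fragment in all SMC libraries. Trdv5 had 3.02, 8.95, 14.0 and 11.4 FPKM in pericytes (q = 0.00574) and 4 fragments in SMCs, all in replicate 4. Trdv2-2 had 9.07, 7.54, 9.46 and 2.35 FPKM in pericytes (q = 0.00412) and 3 fragments in SMCs. Trdv1 and Trdv2-2 were lowest in pericyte replicate 4, where Trdv4 was highest. Trdv2-1 was at 0 in all libraries, and its V exon is 96.7% identical to that of Trdv2-2 with a shared run of 221 bases, so reads of the pair could have been counted on either.

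The Trdv segments were used less evenly than the Trbv segments. Delta V segments under symbols that do not start with Trdv, if any, were not taken. Shares and evenness here are therefore over the Trdv rows and not over the whole delta chain. Trdv4 took 62.7%, 48.7%, 76.0% and 87.3% of summed Trdv FPKM in pericytes and 84.6%, 100%, 97.8% and 81.5% in SMCs. Evenness over the delta segments above 0 was 0.735, 0.894, 0.584 and 0.358 in pericytes, each below the beta value of its library. Summed Trdv FPKM was 67.5, 59.0, 134 and 148 in pericytes and 5.63, 1.11, 11.0 and 10.5 in SMCs. That was 3.05%, 1.53%, 5.91% and 6.57% of summed Trbv FPKM in pericytes and 13.3%, 2.78%, 93.5% and 27.8% in SMCs. The groups overlapped in this ratio. For each replicate number the SMC library was above the pericyte library, but the labels do not say that a number marks shared animals. The Trdv sums of the SMC libraries rest on 3 to 28 fragments each. SMC replicate 3, with the lowest Trbv sum, had the highest ratio. Ranks of the 5 delta segments had a mean rho of 0.783 within pericytes, 0.640 within SMCs and 0.675 between groups, with few segments to rank.

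Trgv2 had 30.2, 47.9, 43.0 and 22.5 FPKM in pericytes and 2.49, 0, 1.91 and 1.12 FPKM in SMCs. Its log2 fold change was 4.04 (SE 0.43, q = 0.000668), and the groups did not overlap. The SMC values rest on 6, 0, 5 and 3 fragments. The other gamma V segments are listed under older symbols that the selection did not take. Of these, Tcrg-V4 (14.0 to 49.4 FPKM in pericytes), Tcrg-V6 (10.7 to 20.1 FPKM), Gm16602 (6.79 to 17.6 FPKM, Trgv1 in RefSeq) and Tcrg-V5 (2.21 to 16.2 FPKM) were called higher in pericytes. Tcrg-V3, whose V exon is 93.5% identical to that of Trgv2, had 0 to 0.904 FPKM in pericytes and 0 to 1.24 FPKM in SMCs and was not called, like Tcrg-V7 (0 to 2.07 FPKM and 0).

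**Figure D4:**
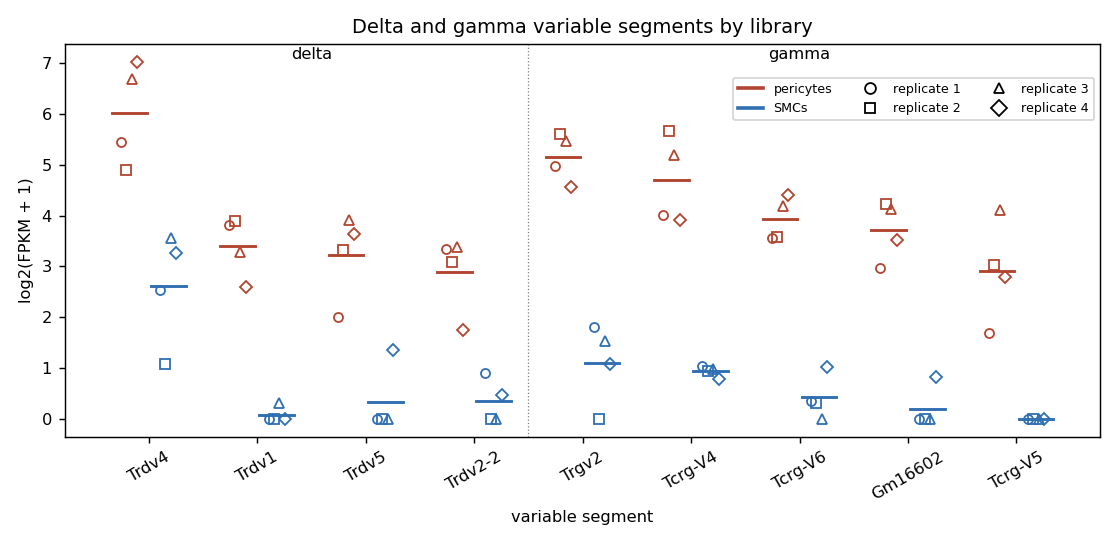
Level of 4 delta segments (left) and 5 gamma segments (right), as log2(FPKM + 1), in the 4 pericyte and 4 SMC libraries, with markers for replicates and a bar for the group mean. Trdv4 is the highest Trdv segment in every library, at 28.7 to 129 FPKM in pericytes, and replicates 3 and 4 are its highest libraries in both groups.

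The constant genes to which V segments are joined moved the same way. Trbc1 had 462, 785, 381 and 469 FPKM in pericytes and 9.50, 5.37, 5.25 and 7.55 FPKM in SMCs (log2 fold change 6.03, SE 0.26, q = 1.87e-05). Trbc2 had 1057, 1915, 861 and 1078 FPKM in pericytes and 14.9, 14.9, 8.20 and 16.2 FPKM in SMCs (log2 fold change 6.37, SE 0.30, q = 2.39e-05). Summed Trbv FPKM was 1.43 to 1.82 times summed Trbc FPKM in pericytes and 0.873 to 1.97 times in SMCs. Trac, the alpha constant gene, had 807 to 1683 FPKM in pericytes and 14.3 to 20.6 FPKM in SMCs (q = 1.28e-05), and Tcrg-C had 4.0 to 7.56 FPKM and 0.0964 to 0.595 FPKM (q = 0.000199). Of the 92 listed constant, diversity, joining and older-symbol receptor genes, 9 were above 0 in some library and 7 of these were called higher in pericytes. All diversity and joining segments, which are much shorter than the V segments, were listed at 0.

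Other genes of the receptor and of T cell development were read from the lists. Of the CD3 complex and coreceptors, 6 of 7 were called higher in pericytes. Cd8b1, a coreceptor chain of cytotoxic T cells, had 190 to 368 FPKM in pericytes and 1.90 to 2.61 FPKM in SMCs, while Cd4 had 11.2 to 43.5 FPKM and 0.634 to 20.2 FPKM and was not called (q = 0.0747). Of 12 genes of V(D)J recombination, 2 were called higher in pericytes. These were Dntt, which adds untemplated bases at the junctions (9.02 to 18.9 FPKM against 0.0218 to 0.810 FPKM), and Hmgb2 (115 to 215 FPKM against 22.4 to 42.4 FPKM). Rag1, a subunit of the recombinase, had 0.206 to 0.578 FPKM in pericytes and 0.0249 to 0.120 FPKM in SMCs. Of 7 tested genes of the pre-TCR and thymocyte list, 6 were called, including Tcf7 (69.8 to 82.3 FPKM against 0.856 to 1.36 FPKM), and Ptcra, the pre-TCR alpha chain, was listed at 0 throughout. Of 9 genes associated with gamma-delta T cells, 4 were called higher in pericytes, and these were Blk, Cd163l1, Il23r and 5830411N06Rik. Their replicate patterns differed. Cd163l1 had 6.17, 2.13, 14.4 and 16.7 FPKM in pericytes, Il23r had 6.89, 14.6, 3.73 and 11.8 FPKM, and Blk, which B cells also express, had 44.1, 49.6, 37.7 and 37.1 FPKM. Il17a, a cytokine gene, had 3.81, 27.5, 1.31 and 2.43 FPKM in pericytes and 0 to 0.616 FPKM in SMCs and was not called (q = 0.0680). Sox13, a transcription factor gene, had a log2 fold change of -0.55 and was not called.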

How the data were processed

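Total RNA from sorted muscle pericytes and SMCs was amplified with an ultra-low input kit, and libraries were made with Nextera XT. The authors checked reads with FastQC, aligned them with Bowtie2 and TopHat to NCBI Build 37 with an Ensembl annotation, and deposited FPKM per gene and library, without a log transform or a filter. The program that computed FPKM and the handling of strand are not given in the sources used here. Strand was therefore treated as unknown, and no other annotated gene overlaps the 29 segments.

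Values were analysed as log2(FPKM + 1) with limma 3.58.1 in R 4.3.3 (lmFit, eBayes) and Benjamini-Hochberg adjustment over the 27414 genes above 0 in at least 1 library. The scale understates the change of low genes. P-values rest on the spread between libraries within a group, pooled over both groups and moderated over all tested genes by eBayes. Each library was pooled from several sorts. Evenness, shares and ranks were computed per library in Python 3.11.15 without a test. Fragments were estimated from the smallest values of genes with a single model of 285 to 430 bases. Gene models came from GENCODE mouse version 1 (Ensembl release 65), which holds all 29 identifiers, pseudogene labels from RefSeq (GRCm38.p6, names only), and sequences from the Build 37 genome. The recombination signal was taken as the best match beginning from 10 bases before to 29 bases after the annotated end.

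The segments, marker lists and pathway lists were chosen with earlier results of these data known. Named were Trbv17, the segments with the highest means in either group, the largest and smallest spreads over pericytes, members of subfamilies, pseudogenes, and segments at 0 or not called. Alternatives were a pseudocount of 0.1, a filter of 1 FPKM in 4 libraries, TPM and quantile scaling, an intensity trend, the replicate block, leaving out each library, a detection limit of 1 FPKM, weights by length, and other ranks. Weights by fragments were chosen after seeing the data. A gene of the gamma-delta T cell list is not reported here.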

Additional observations from a re-analysis of the deposited data

Results flagged for a closer look

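Of 67 groups of 4 libraries examined, 8 had a library far from the other 3 by Dixon's criterion, which chance gives in about 1 of 20 groups. In pericyte replicate 2, Trbv13-2 had 422 FPKM, Trbv13-3 had 260 FPKM and the summed Trbv level was 3861 FPKM, each far above the other pericyte libraries, and that library also had the highest FPKM total over all genes (1190435). Pericyte replicate 1 had 22 Trbv segments above 0 against 21 in the other 3, the added segment being Trbv21 with 1 fragment. In SMC replicate 3 the summed Trbv level was 11.7 FPKM against 37.9 to 42.2 FPKM in the other SMC libraries, and Trbc2 was 8.20 FPKM against 14.9 to 16.2 FPKM. In SMC replicate 1 the leading Trbv segment, Trbv13-3, took 22.5% of the summed Trbv FPKM against 12.9% to 13.1% in the others. In SMC replicate 4 Tcrg-C had 0.595 FPKM against 0.0964 to 0.107 FPKM in the others. No cause of these values was tested.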

How the results depend on the processing

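The counts of called segments were 21 Trbv, 1 Trgv and 4 Trdv under each alternative that was fitted, and with any library left out, where all genes called numbered 845 to 885 higher in pericytes and 607 to 774 higher in SMCs. With a pseudocount of 0.1, 1421 genes were called higher in SMCs against 728, and 1328 higher in pericytes against 888. Among the fold changes of named genes, 384 alternative values kept direction and call, though not size (with a pseudocount of 0.1, Trdv1 was 6.13 against 3.31, Trdv5 5.35 against 2.87 and Trdv2-2 4.601 against 2.55), and 5 changed sign, all of Tcrg-V3 (0.041), with -0.042 in TPM and -0.12 to 0.30 with a library left out. With values under 1 FPKM set to 0, the SMC libraries had a mean of 10.5 Trbv segments above 0 (16.25 before) with an evenness of 0.963 (0.923), and mean rank agreement of Trbv was 0.571 between groups (0.666) and 0.401 within SMCs (0.539), and that of Trdv within SMCs 0.895 (0.640). Summed Trbv in SMCs was 47.3 in TPM against 32.9 FPKM. Over segments above 0 in both libraries, mean agreement of Trbv was 0.279 between groups and 0.179 within SMCs, and that of Trdv 0.875 between groups and 0.567 within pericytes. With Pearson's r of log2(FPKM + 1), it was 0.985 for Trbv within pericytes and 0.920 for Trdv within SMCs. By fragments the leading Trbv segment took a mean of 10.8% in pericytes against 9.96%. The cause was not tested. Weights by length were computed for evenness and the leading share only. Few fragments (324 over 4 libraries) lie behind the Trbv values in SMCs.

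The replicate block also gave 21 Trbv, 1 Trgv and 4 Trdv calls, and changed the call of none of the 36 segments and receptor genes compared. The labels do not say that a number marks shared animals. Same-numbered libraries deviated together with a mean correlation of 0.327 (range 0.0794 to 0.474 over 4 pairs, 13612 genes), and 5 of 8 libraries correlated best with their own number.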
